A study of Mus musculus with 6 samples.

Results

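Iron handling in the liver was examined through 10 genes, chosen by symbol for their roles and matched by Ensembl gene ID among the 37991 gene IDs counted: the hepcidin genes Hamp and Hamp2, the BMP ligand gene Bmp6, the transferrin gene Trf, its receptor genes Tfrc and Tfr2, the transporter genes Slc40a1 and Slc39a14, and the ferritin genes Fth1 and Ftl1. All 10 were found, and all 10 were among the 12631 genes that passed the filter on low counts. The samples were 6 livers of FVB mice aged 84 days, 3 wild type at Ing5 (Ing5 +/+, WT) and 3 with the genotype Ing5 MommeD48/+ (Het). Ing5 encodes a subunit of histone acetyltransferase complexes, and the allele comes from a mouse screen for modifiers of transgene silencing. The labels do not give the kind of mutation, the animals' sex or diet, or whether each sample came from its own mouse, so a p-value here reflects only how far these samples scatter, and that scatter may be technical. The Ing5 count itself was 182, 228 and 191 in WT and 193, 217 and 180 in Het livers.

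Hepcidin is a peptide hormone made by hepatocytes that binds ferroportin, the iron exporter encoded by Slc40a1, and has it degraded, which lowers the release of iron into plasma. Its gene is controlled along a BMP and SMAD arm, in which BMP6 from sinusoidal endothelial cells reports iron load, and along an interleukin 6 and STAT3 arm, which raises hepcidin in inflammation. Saa1, an acute-phase gene of the same hepatocytes, was therefore used as a gauge of the inflammatory state of each liver.

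Total counts per library ranged from 19840541 to 22041117, and a count of 0 would allow up to 0.136 to 0.154 CPM (counts scaled to a common library size), counting error only. Hepatocyte markers, led by Alb and Apoa1, summed to 72171 to 95001 CPM. Of the other cell type lists, Kupffer cell markers (7 of 7 detected, led by Clec4f and Cd5l) summed to 106 to 193 CPM in the WT livers against 117 to 208 CPM in Het livers, and sinusoidal endothelial markers (6 of 6, led by Clec4g and Stab2) to 112 to 152 and 115 to 143 CPM. Stellate cell markers, led by Dcn and Reln, summed to 120 to 212 CPM, and neutrophil markers, led by S100a9 and S100a8, to 0.411 to 1.81 CPM, with Ly6g at 0 in all 6 libraries. In bulk liver, fewer cells of a type and less RNA per cell cannot be told apart.

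The livers differed in acute-phase state within both genotypes. Saa1 had 1381, 4300 and 31.2 CPM in WT replicates 1, 2 and 3, and 753, 44.8 and 24.0 CPM in Het replicates 1, 2 and 3. Saa1 thus spanned a 179-fold range, with 3 livers high (WT replicates 1 and 2, Het replicate 1) and 3 low. For Het against WT its log2 fold change of -2.80 (SE 2.27) did not pass (edgeR quasi-likelihood, Benjamini-Hochberg adjusted p = 0.9998). All 10 genes of the acute-phase list had negative log2 fold changes for genotype, and 0 passed, against 0% of all genes. The gauge was thus not balanced between genotypes. The summed acute-phase list, led by Fgb and Fga, ran from 8270 to 24865 CPM. On the log2 scale the largest gap between neighbouring livers, 4.07, was 54.4% of the whole range of 7.48, so the livers formed separate clusters and no correlation coefficient with Saa1 is given. Values are instead set out liver by liver, together with a slope per doubling of Saa1 from a model that also holds genotype. With so few livers that slope largely sets the high livers against the low ones.

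The hepcidin genes lie close together on chromosome 7, and their upstream sequences are shown because the 2 signalling arms above are known to act there. The runs are the 250 bases before the annotated start sites, read 5′ to 3′ on the minus strand, from RefSeq on build GRCm38.p6 at chr7:30944030-30944279 for Hamp and chr7:30924182-30924431 for Hamp2. The reference is not of the FVB strain and its build differs from that of the counts. Capitals mark TTCNNNGAA, the core of a STAT site, and GGCGCC, the core of the BMP-responsive element, each of which reads the same on both strands.
Hamp: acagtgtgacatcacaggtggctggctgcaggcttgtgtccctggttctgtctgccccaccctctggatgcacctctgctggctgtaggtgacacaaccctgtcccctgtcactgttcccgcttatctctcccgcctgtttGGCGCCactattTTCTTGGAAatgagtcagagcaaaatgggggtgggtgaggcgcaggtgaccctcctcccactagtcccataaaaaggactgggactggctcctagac
Hamp2: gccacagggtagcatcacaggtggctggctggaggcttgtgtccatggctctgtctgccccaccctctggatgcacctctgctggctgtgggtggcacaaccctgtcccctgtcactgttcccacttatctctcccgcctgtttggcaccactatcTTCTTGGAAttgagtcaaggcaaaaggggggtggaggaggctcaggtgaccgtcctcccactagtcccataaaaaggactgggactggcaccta
The STAT core matched once in each sequence, beginning 97 bases before the start site in Hamp and 94 bases before it in Hamp2, as TTCTTGGAA in both. The BMP core matched once in Hamp, 109 bases before the start, and had no match in Hamp2. Among 32851 promoter windows of 300 bases, 8.3% held the STAT core and 11.9% the BMP core. Windows were found for 7 of the 10 iron genes, and among genes other than the hepcidins the BMP core matched in 1 window of Tfrc. These are letter matches, not measured binding. Over 247 aligned bases the upstream sequences were 91.9% identical, and the longest protein-coding transcripts of GENCODE M21 were 94.6% identical over 410 bases with a shared run of 87 bases. How reads common to both copies were counted was not given in the sources used here, so the low values of Hamp2 are uncertain.

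Hamp (ENSMUSG00000050440), the hepcidin gene, did not differ between genotypes beyond the spread of the livers. It had 974, 895 and 1054 CPM in WT replicates 1, 2 and 3, and 1170.2, 1340.5 and 725 CPM in Het replicates 1, 2 and 3. The highest and the lowest liver were both Het, and the WT values lay between them. The means were 974 ± 79.4 CPM in the WT livers against 1079 ± 318 CPM in Het livers (SD, n = 3 each), a log2 fold change of 0.15 (SE 0.21, 95% interval -0.32 to 0.61) that did not pass edgeR's quasi-likelihood test (Benjamini-Hochberg adjusted p = 0.9998, here and below over the whole table of genes). The interval spans folds of 0.801 to 1.53. Single livers decided the sign: the log2 fold change was -0.04 without Het replicate 2 and 0.37 without Het replicate 3. Over the 6 livers the SD of log2 CPM of Hamp was 0.31, at the 82.5th percentile of genes tested, where the median gene had 0.16.

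Hamp levels did not run in the order of Saa1. In order of rising Saa1 (Het 3, WT 3, Het 2, Het 1, WT 1, WT 2) its levels were 725, 1054, 1340.5, 1170.2, 974 and 895 CPM. The liver with the most Saa1 therefore had less Hamp than 4 of the other 5. Within WT, the liver with the most Saa1 had 0.849 times the Hamp of the liver with the least, and within Het 1.61 times. The slope was 0.0021 on the log2 scale per doubling of Saa1 (SE 0.044, 95% interval -0.10 to 0.11), and it did not pass (edgeR quasi-likelihood, Benjamini-Hochberg adjusted p = 0.992). Its sign turned without Het replicate 1 or Het replicate 3. The interval bounds the slope and does not show that Hamp was free of any response to inflammation.

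Hamp2 (ENSMUSG00000056978), the second mouse hepcidin gene, had a different pattern. Its counts were 84, 100 and 271 in WT replicates 1 to 3 and 100, 165 and 132 in Het replicates 1 to 3, or 4.04, 4.54 and 13.9 CPM against 4.78, 7.59 and 6.44 CPM. WT replicate 3 stood above every other liver, and the Het values lay inside the WT range. The SD of its log2 CPM over the 6 livers, 0.65, was at the 98.0th percentile of genes tested. The log2 fold change was -0.25 (SE 0.55) with all livers and 0.55 without WT replicate 3, and neither passed (edgeR quasi-likelihood, Benjamini-Hochberg adjusted p = 0.9998 with all livers, adjusted p = 0.386 without that one). The 3 livers low in Saa1 had the 3 highest Hamp2 values. Its slope was -0.21 per doubling of Saa1 (SE 0.038, unadjusted p = 0.00043) and missed the threshold over all genes (edgeR quasi-likelihood, Benjamini-Hochberg adjusted p = 0.0729). It passed with DESeq2 (Benjamini-Hochberg adjusted p = 0.00134), with edgeR without the low-count filter (Benjamini-Hochberg adjusted p = 0.02) and with edgeR without Het replicate 1 (Benjamini-Hochberg adjusted p = 0.0178), while without WT replicate 3 the slope was -0.09.

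The balance between the hepcidin copies shifted between livers. Hamp2 took 0.414%, 0.504% and 1.30% of hepcidin counts in WT replicates 1 to 3 and 0.407%, 0.563% and 0.880% in Het replicates 1 to 3. The exact 95% binomial interval of WT replicate 3, 1.15% to 1.47%, overlapped that of no other liver, although these intervals cover counting error only. Summed, the copies had 982 ± 84.2 CPM in the WT livers against 1085 ± 318 CPM in Het livers (SD, n = 3), a difference that did not pass (exact two-sided permutation p = 0.8, where 0.1 is the smallest that 3 against 3 allow).

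**Figure D1:**
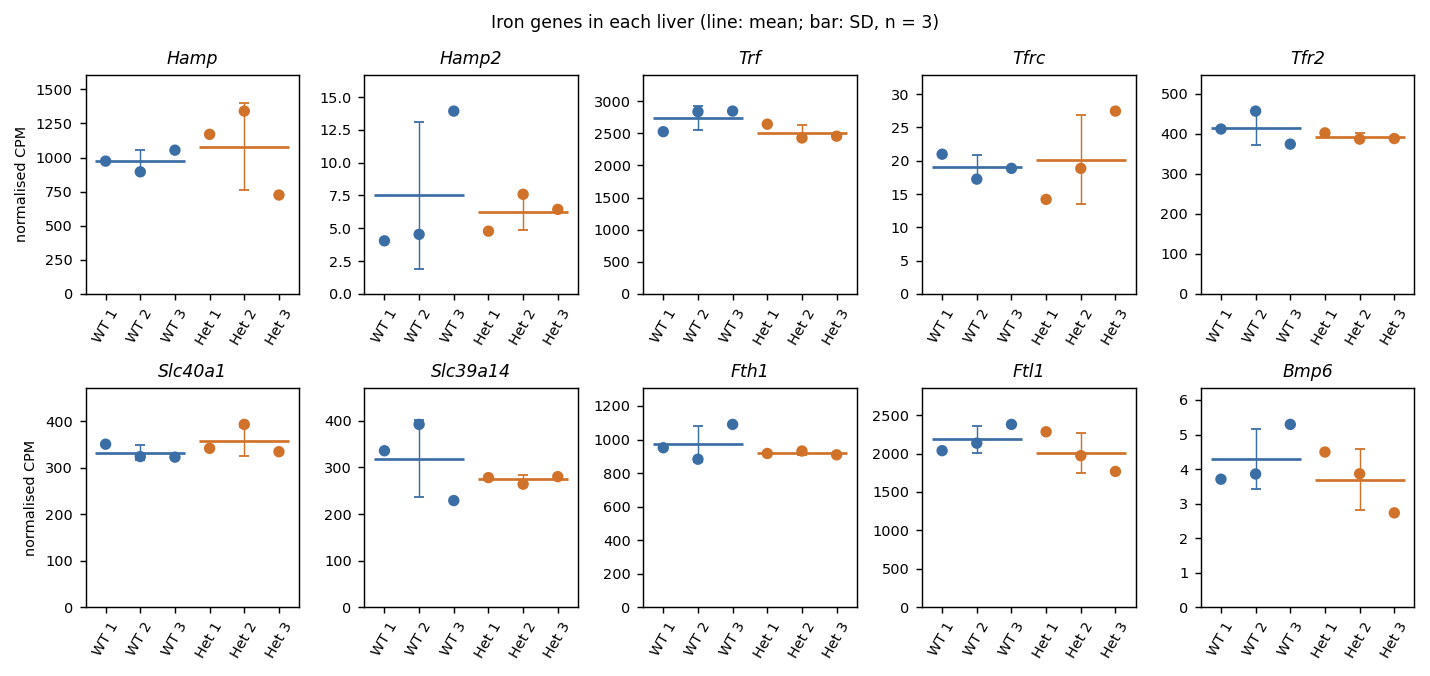
Normalised CPM (vertical axes, from 0) of the 10 iron genes in WT (blue) and Het (orange) livers, 1 point per liver, with lines for means and bars for SD (n = 3). WT and Het points overlap in all 10 panels; Hamp is highest in Het replicate 2 and lowest in Het replicate 3, and Hamp2 is highest in WT replicate 3.

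Bmp6, the endothelial ligand that drives hepcidin transcription, was measured at 56 to 103 counts per library. Its levels were 3.71, 3.86 and 5.29 CPM in the WT livers against 4.49, 3.86 and 2.73 CPM in Het replicates 1 to 3. WT replicate 3 was highest and Het replicate 3 lowest, and the genotypes overlapped. Sinusoidal endothelial markers in the same order summed to 128, 112 and 152 CPM in the WT livers against 117, 143 and 115 CPM in Het livers, so WT replicate 3 was highest in both; the part of these cells in the Bmp6 values was not tested. The log2 fold change of Bmp6 was -0.21 (SE 0.22), and its slope on Saa1 was -0.01 (SE 0.041).

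Trf encodes transferrin, the plasma carrier of iron, and Tfr2 a receptor by which hepatocytes sense transferrin loaded with iron. Trf had 2525, 2836 and 2845 CPM in the WT livers against 2642, 2426 and 2455 CPM in Het replicates 1 to 3. The 2 lowest values were Het, but Het replicate 1 lay above WT replicate 1. Tfr2 had 411, 456 and 374 CPM in the WT livers against 402, 386 and 388 CPM in Het livers, all Het values falling within the WT range. Both genes varied little, with a highest liver 1.17 times the lowest for Trf and 1.22 times for Tfr2. Their log2 fold changes were -0.13 (SE 0.11) and -0.08 (SE 0.11), and their slopes on Saa1 were 0.0026 (SE 0.018) and 0.03 (SE 0.016).

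Tfrc, the transferrin receptor by which cells take up iron and whose transcript is stabilised when iron is scarce, varied more. It had 21.0, 17.2 and 18.9 CPM in the WT livers against 14.2, 18.9 and 27.5 CPM in Het replicates 1 to 3. The highest and the lowest liver were both Het. Het replicate 3, lowest in Hamp, was highest in Tfrc, while the lowest Tfrc value was in Het replicate 1 and Het replicate 2, highest in Hamp, was at 18.9 CPM. The log2 fold change was 0.08 (SE 0.23) with all livers, -0.20 without Het replicate 3 and 0.28 without Het replicate 1. The slope on Saa1 was -0.06 (SE 0.041), and it was -0.17 without WT replicate 3.

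Slc40a1 encodes ferroportin, present in Kupffer cells and hepatocytes. It had 350.5, 324 and 323 CPM in the WT livers against 342, 393 and 334 CPM in Het replicates 1 to 3. Het replicate 2 stood highest and the other 5 livers lay between 323 and 350.5 CPM. Het replicate 2 also had the largest Kupffer cell sum, 208 CPM; the WT sums were 193, 187 and 106 CPM and those of the other Het livers 154 and 117 CPM. The part of Kupffer cells in the ferroportin value was not tested. The log2 fold change was 0.10 (SE 0.11), and the slope on Saa1 was 0.00017 (SE 0.018).

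Slc39a14, which encodes the importer ZIP14 for iron not bound to transferrin, had 336, 392 and 229 CPM in the WT livers against 278, 264 and 280.2 CPM in Het replicates 1 to 3. The WT livers spread widely around 3 close Het values. Within WT, the liver with the most Saa1 had 1.71 times the Slc39a14 of the liver with the least; within Het the ratio was 0.992, although Saa1 differed there between 753 and 24.0 CPM. Whether these genotypes differ in slope was not tested. The log2 fold change was -0.22 (SE 0.17) with all livers, 0.01 with Saa1 as a covariate, and -0.41 without WT replicate 3. Its slope was 0.07 per doubling of Saa1 (SE 0.023, unadjusted p = 0.00976), did not pass over all genes (edgeR quasi-likelihood, Benjamini-Hochberg adjusted p = 0.255), but passed without Het replicate 1 (edgeR quasi-likelihood, Benjamini-Hochberg adjusted p = 0.0154), when the slope was 0.10. Without WT replicate 3 it was 0.02.

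The ferritin genes, whose heavy and light chains form the shell that stores iron, varied no more than the median gene (SD of log2 CPM over the 6 livers 0.11 for Fth1 and 0.15 for Ftl1). Fth1, the heavy chain gene, had 951, 882 and 1090.1 CPM in the WT livers against 917, 931 and 909 CPM in Het replicates 1 to 3, the Het values lying inside the WT range. Ftl1, the light chain gene, had 2037, 2134 and 2379 CPM in the WT livers against 2283, 1972 and 1766 CPM in Het replicates 1 to 3. The 2 lowest Ftl1 values were Het and the highest was WT, with overlap through Het replicate 1. The log2 fold changes were -0.08 (SE 0.12) for Fth1 and -0.12 (SE 0.13) for Ftl1. Of 11 other ferritin genes and pseudogenes in the name table, 8 had 0 counts in all libraries and none exceeded 4 counts in a library.

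Of the 10 iron genes, 0 passed an adjusted p of 0.05 for Het against WT by edgeR's quasi-likelihood test after Benjamini-Hochberg adjustment, where 0% of all genes tested passed, and 0 had an unadjusted p under 0.05, against 4.33% of all genes. DESeq2 and limma-voom also called 0 of the 10. In none of the 10 were the 3 Het values all on 1 side of the 3 WT values, against 8.99% of all genes. Fold changes were positive for 3 members and negative for 7, with a median of -0.10, where the median gene had 0.00088. For the slope on Saa1, 0 of the 10 passed with edgeR and limma-voom and 1, Hamp2, with DESeq2, where edgeR passed 0.253% of genes as higher and 0.0871% as lower with more Saa1. At an unadjusted p under 0.05, Hamp2 and Slc39a14 were 2 of 10, against 11.6% of all genes. Without Het replicate 1, Hamp2 and Slc39a14 passed, when the number of genes passing over the whole table went from 43 to 453; with DESeq2 it was 205.

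**Figure D2:**
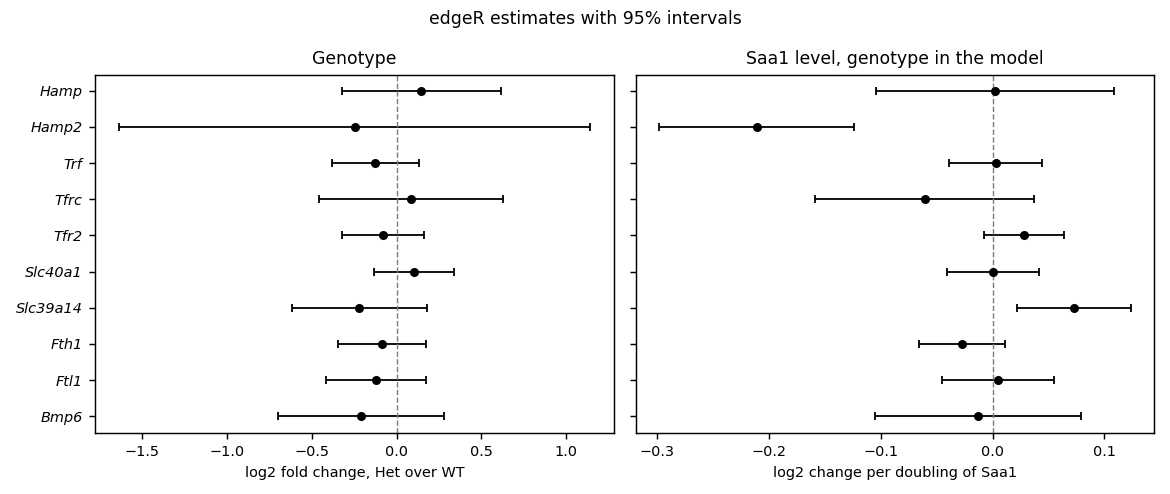
edgeR estimates with 95% intervals for the 10 iron genes. Left, log2 fold change of Het over WT, where every interval crosses 0; right, log2 change per doubling of Saa1 with genotype in the model, where the intervals of Hamp2 (below 0) and Slc39a14 (above 0) do not cross 0 and neither gene passed after adjustment over all genes.

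Other genes of the pathway were taken as 7 lists. In the list of BMP and SMAD control, 0 of 18 tested genes passed for genotype, against 0% of all genes. Of the 18, 9 were positive and 9 negative, and the median log2 fold change was 0.0021. Groups did not overlap for Hfe (lower in Het) and Smad9 (higher), 1 gene each way of 18, against 8.99% of all genes. Tmprss6, the protease that dampens this arm, had 500.2 ± 8.07 CPM in the WT livers against 527 ± 19.7 CPM in Het livers (SD, n = 3). Hfe, the hemochromatosis gene, had the smallest p: its 33.9, 31.2 and 31.5 CPM in WT lay above its 29.5, 23.5 and 27.6 CPM in Het replicates 1 to 3. Its log2 fold change of -0.26 (SE 0.099, unadjusted p = 0.0254) did not pass (edgeR quasi-likelihood, Benjamini-Hochberg adjusted p = 0.9998). Neo1, a coreceptor gene, had 21.8 ± 2.68 and 25.3 ± 1.53 CPM. Erfe, the erythroid signal that lowers hepcidin, had 0 counts in all 6 libraries.

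Fgl1 encodes a hepatocyte secreted protein and is also an acute-phase gene. It was the 1 gene of 18 in that list that passed as rising with Saa1, against 0.253% of all genes. At an unadjusted p under 0.05 there were 3 of 18, against 11.6% of all genes. Besides Fgl1 these were Smad9 (slope 0.075, SE 0.026) and Bmpr2 (slope 0.12, SE 0.049). Fgl1 had 734, 1734 and 144 CPM in the WT livers against 1219, 178 and 133 CPM in Het replicates 1 to 3, high in the same 3 livers as Saa1. Its slope was 0.54 per doubling of Saa1 (SE 0.043; edgeR quasi-likelihood, Benjamini-Hochberg adjusted p = 0.0114). FGL1 is known as an antagonist of BMP signalling to hepcidin. Its transcript spanned a 13.1-fold range over the 6 livers, and Hamp spanned a 1.85-fold range. Whether Fgl1 acted on Hamp in these livers was not tested.

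In the interleukin 6 list 0 of 5 genes passed for genotype, against 0% of all genes. For Saa1 0 passed with edgeR and all livers, and 4 rose at an unadjusted p under 0.05, against 11.6% of all genes. Their slopes were 0.085 (Il6ra), 0.073 (Il6st), 0.10 (Stat3) and 0.12 (Socs3). The median slope of the list was 0.085, and -0.0093 without WT replicate 3. Stat3 passed with DESeq2 (Benjamini-Hochberg adjusted p = 0.0479). Without Het replicate 1 Stat3, Il6st and Il6ra passed with edgeR (Benjamini-Hochberg adjusted p = 0.00285, 0.00381 and 0.0219), among 453 genes in all. Log2 fold changes for genotype were negative for all 5, with a median of -0.34. The median was -0.10 without WT replicate 2, -0.58 without WT replicate 3 and -0.07 with Saa1 as a covariate, when Il6st (0.08) and Jak1 (0.02) were positive. Stat3, the transcription factor of this arm, had 127, 151 and 70.3 CPM in the WT livers against 84.5, 82.3 and 86.1 CPM in Het replicates 1 to 3, and Il6ra, the receptor gene, 43.6, 43.8 and 23.5 against 28.8, 27.6 and 31.1 CPM. In both genes WT replicates 1 and 2 were high, while Het replicate 1, high in Saa1, was level with the other Het livers. Without WT replicate 3 both passed as lower in Het (edgeR quasi-likelihood, Benjamini-Hochberg adjusted p = 0.0296 for Stat3 and 0.0342 for Il6ra), among 17 genes in all. With Saa1 as a covariate and all livers, the log2 fold change of Stat3 went from -0.46 to -0.12 (unadjusted p = 0.559) and that of Il6ra from -0.34 to -0.07 (unadjusted p = 0.741). Socs3, a feedback inhibitor, had 7.45 ± 3.64 and 5.07 ± 0.869 CPM, Jak1 111 ± 8.23 and 111 ± 5.80 CPM, and the signal transducer gene Il6st 114 ± 32.3 and 102 ± 5.69 CPM in the WT and the Het livers.

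Among 10 genes for uptake of iron, heme and hemoglobin, 0 passed for genotype, against 0% of all genes. With edgeR 2 passed as rising with Saa1, against 0.253% of all genes. The median log2 fold change for genotype was -0.26, and it was 0.15 with Saa1 as a covariate, -0.04 without WT replicate 2 and -0.58 without WT replicate 3. These were Hpx, whose product hemopexin binds free heme, and Hp, whose product haptoglobin binds free hemoglobin. Hpx had 4098, 6643 and 2206 CPM in the WT livers against 3594, 2326 and 2085 CPM in Het replicates 1 to 3, with a slope of 0.19 (SE 0.023; edgeR quasi-likelihood, Benjamini-Hochberg adjusted p = 0.0128). Hp had 3020.0, 5732 and 1544 CPM in the WT livers against 3478, 1938 and 1611 CPM in Het livers, with a slope of 0.24 (SE 0.026; edgeR quasi-likelihood, Benjamini-Hochberg adjusted p = 0.00825). The same 3 livers were high in both. Lcn2, also of this list, had 64.6, 323 and 2.36 CPM in the WT livers against 92.4, 1.89 and 0.927 CPM in Het replicates 1 to 3. Its slope of 1.14 (SE 0.0997) missed the threshold (edgeR quasi-likelihood, Benjamini-Hochberg adjusted p = 0.0729). It passed with limma-voom (Benjamini-Hochberg adjusted p = 0.00108) and with DESeq2 (Benjamini-Hochberg adjusted p = 1.98e-18). Slc39a8, an importer related to Slc39a14, had 20.1 ± 0.266 CPM in the WT livers against 24.2 ± 2.84 CPM in Het livers (SD, n = 3) without overlap. That was 1 gene of 10 in this list, against 8.99% of all genes. Its log2 fold change of 0.27 (SE 0.099) did not pass (edgeR quasi-likelihood, Benjamini-Hochberg adjusted p = 0.9998).

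**Figure D3:**
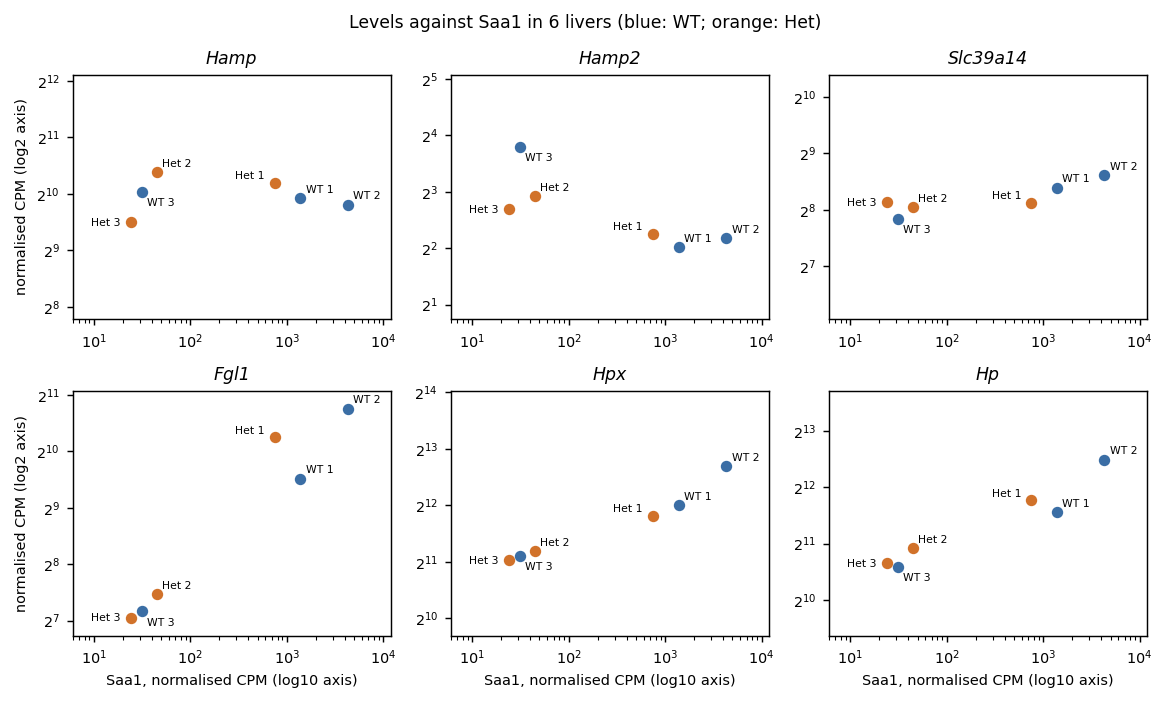
Normalised CPM (log2 axis, same span in every panel) against Saa1 CPM (log10 axis) in 6 livers, WT blue and Het orange. Fgl1, Hpx and Hp are higher in the 3 livers with 753 to 4300 CPM of Saa1, Hamp shows no such order, Hamp2 is lower there, and Slc39a14 differs among WT livers.

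How many genes passed for Saa1 varied with the livers kept. The count over all genes was 43 with all livers, 11 without WT replicate 2, 65 without WT replicate 3, 453 without Het replicate 1 and 8 without Het replicate 3. The count in the pathway lists was 3 with all livers, 15 without Het replicate 1 and 0 without Het replicate 3. With DESeq2 it was 6, when 205 genes passed over the whole table. Fgl1 did not pass without WT replicate 2 or with Orm2, another acute-phase gene, in place of Saa1 (edgeR quasi-likelihood, Benjamini-Hochberg adjusted p = 0.164 for the first, adjusted p = 0.0824 for the second), and neither Hpx nor Hp passed without WT replicate 3. The slopes moved little where these calls were lost: Fgl1 had 0.54 without WT replicate 2 and 0.53 without Het replicate 3. Without WT replicate 3 Hpx had 0.18 and Hp 0.25, and without Het replicate 3 they had 0.20 and 0.24. Against Orm2 the slope of Fgl1 was 0.77 per doubling of that gene.

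The 4 remaining lists held 0 genes that passed for genotype, against 0% of all genes. They held 0 that passed for Saa1 in the main edgeR fit, where 0.253% of all genes passed as higher and 0.0871% as lower. Of 8 genes for iron export and heme breakdown, 3 were positive and 5 negative for genotype (median -0.09). The ferroxidase gene Cp had 1876 ± 464 and 1719 ± 225 CPM in the WT and the Het livers. Its slope on Saa1 missed the threshold in the main edgeR fit (Benjamini-Hochberg adjusted p = 0.0786). It passed with DESeq2 (Benjamini-Hochberg adjusted p = 1.07e-05). With edgeR it passed without the low-count filter, without genotype in the model and without Het replicate 1 (Benjamini-Hochberg adjusted p = 0.0211, 0.0485 and 0.0154). The biliverdin reductase gene Blvrb had 82.4 ± 9.05 and 87.4 ± 4.34 CPM, and the heme transporter gene Slc48a1 40.8 ± 0.961 and 38.3 ± 3.46 CPM. The heme exporter gene Flvcr1 had 6.73 ± 0.559 and 5.51 ± 0.465 CPM without overlap, 1 gene of 8 in that list, against 8.99% of all genes. Of 6 genes for iron sensing and storage control, 3 were positive and 3 negative (median -0.01); Aco1, which encodes the iron regulatory protein IRP1, had 242 ± 19.3 and 243 ± 7.95 CPM, and Ncoa4, the ferritin autophagy receptor gene, 164 ± 9.45 and 157 ± 7.86 CPM. The iron chaperone genes Pcbp2 and Pcbp1 had 141 ± 3.81 and 110.1 ± 15.9 CPM in WT livers and 133 ± 6.95 and 118 ± 3.73 CPM in Het livers.

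Of 7 genes for mitochondrial iron and iron-sulfur clusters, 1 was positive and 6 were negative (median -0.09). Slc25a37, which encodes the mitochondrial iron importer mitoferrin, had 52.8, 51.9 and 65.1 CPM in the WT livers against 53.0, 43.4 and 46.0 CPM in Het replicates 1 to 3, overlapping through Het replicate 1 (log2 fold change -0.25, SE 0.11, unadjusted p = 0.048). Among genes that build iron-sulfur clusters, the scaffold gene Iscu had 66.3 ± 8.90 and 62.1 ± 0.821 CPM, the sulfur donor gene Nfs1 64.2 ± 4.15 and 62.1 ± 2.08 CPM, and the glutaredoxin gene Glrx5 53.2 ± 8.61 and 45.4 ± 5.55 CPM. Of 8 heme synthesis genes, 5 were positive and 3 negative (median 0.03). Alas1, the rate-limiting enzyme of heme synthesis in liver, had 478, 287 and 324 CPM in the WT livers against 342, 214 and 235 CPM in Het replicates 1 to 3, overlapping through Het replicate 1. Cpox, the coproporphyrinogen oxidase gene, had 211 ± 7.85 and 220.0 ± 15.6 CPM. Fech, the ferrochelatase gene, had 159 ± 3.33 and 174 ± 10.5 CPM without overlap (log2 fold change 0.13, SE 0.085). That was 1 gene of 8 in the heme synthesis list, against 8.99% of all genes. Neither Alas1 nor Fech passed (edgeR quasi-likelihood, Benjamini-Hochberg adjusted p = 0.9998).

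**Figure D4:**
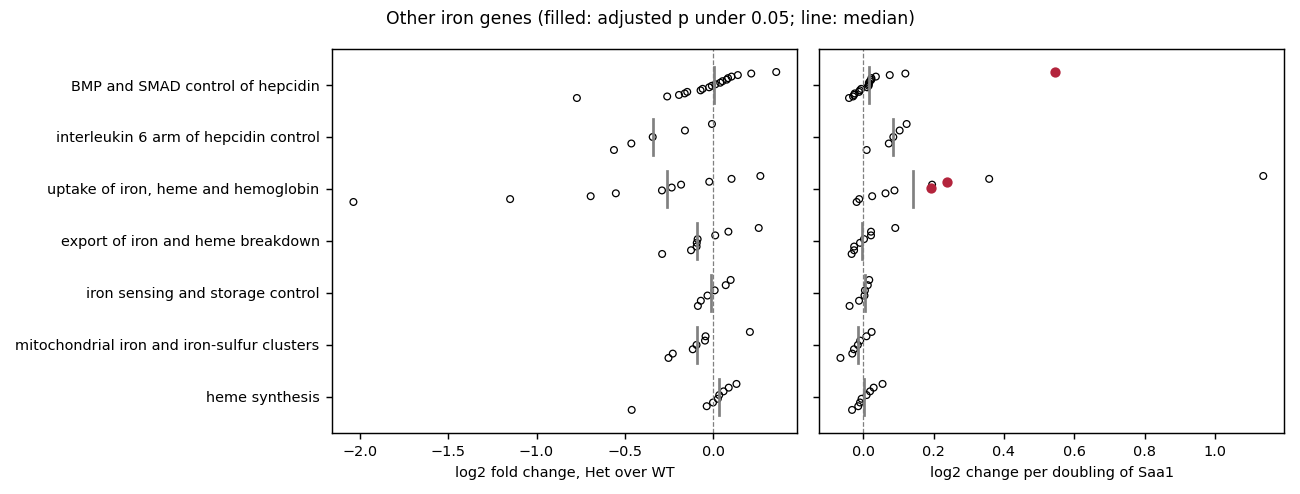
Effects in 7 lists of other iron genes, 1 point per tested gene, filled where the adjusted p was under 0.05 and with a vertical line at each list's median. Left, log2 fold change of Het over WT, with 0 filled points; right, log2 change per doubling of Saa1, with Fgl1, Hpx and Hp filled.

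The genes whose levels ran most like Hamp over the 6 livers were Id3, Mgp, Pot1a, Sprn and Dhx57 (Pearson r of log2 CPM 0.988, 0.982, 0.975, 0.975 and 0.973). Their highest liver was 2.04, 1.64, 1.56, 2.39 and 1.09 times the lowest, against 1.85 for Hamp. Mgp had only 19 to 33 counts per library and Sprn 17 to 43. Id3, an inhibitor of DNA binding by transcription factors, had 23.5, 22.6 and 27.3 CPM in the WT livers against 29.1, 37.0 and 18.1 CPM in Het replicates 1 to 3, and it ranked the 6 livers in the same order as Hamp. Its relative Id1, from the BMP and SMAD list, had 5.25, 5.13 and 7.81 CPM in the WT livers against 9.23, 5.47 and 2.54 CPM in Het livers, lowest like Hamp in Het replicate 3 but highest in Het replicate 1. The genes most opposed to Hamp were Armc1, Slc45a4, Tldc1, Dnajc5 and Rabl3 (r = -0.990, -0.985, -0.972, -0.970 and -0.969). These 10 were picked as the extremes of 11639 genes over 6 points from the same libraries, of which 41 had r above 0.9 and 47 below -0.9, so they are given as a description.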

How the data were processed

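The authors deposited raw, whole-number counts by Ensembl gene ID for 6 liver libraries. Per the submitters' processing notes TopHat2 2.0.11, HTSeq 0.6.1 and DESeq were used with mm9. The annotation release and the strand setting are not given in the sources used here. Per the labels' protocols, poly(A) RNA came from frozen livers by Trizol and went into Illumina TruSeq kits. Symbols were matched by gene ID for 32919 of 37991 IDs (Hjv through the RefSeq synonym Hfe2; Hbb-b1 was unmatched).

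Counts were filtered with filterByExpr (12631 genes kept), TMM-normalised and tested by the quasi-likelihood method (robust) of edgeR 4.0.16 (R 4.3.3), for genotype and for log2 CPM of Saa1 (prior count 2) plus genotype. P-values were Benjamini-Hochberg adjusted over all genes, threshold 0.05; SE and 95% intervals came from the F statistic. DESeq2 1.42.0 and limma-voom (limma 3.58.1), other normalisations and filters, a replicate block, covariates and each library left out were alternatives. The steps were tested on simulated data. Named genes were the 10 members and the 5 most and least like Hamp. From each list they were the pathway genes past the threshold or the most abundant and smallest p. Id1, Il6ra, Smad9, Bmpr2, Lcn2, Alas2, Hmox1 and Erfe were added after their values were seen. Members and lists were chosen with earlier results of these data known. Correlations with Saa1 were to be given unless the livers formed separate clusters (a gap over 50% of the range with at least 2 livers on each side).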

Additional observations from a re-analysis of the deposited data

How the results depend on the processing

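For Het against WT the number of genes that passed was 0 with all livers, 1 without the low-count filter, 13 with DESeq2 and 0 to 17 with single livers left out (17 without WT replicate 3, 10 without Het replicate 1), and the number of iron pathway genes was 0 to 2 with single livers left out. No member passed for genotype under any alternative. Among the members, log2 fold changes that turned sign were those of Tfrc (-0.10), Tfr2 (0.00014) and Slc39a14 (0.0104) with Saa1 as a covariate and, with single livers left out, of Hamp (-0.0399 to 0.37), Hamp2 (-0.55 to 0.55), Tfrc (-0.20 to 0.28), Fth1 (-0.15 to 0.0035) and the hepcidin sum (-0.0791 to 0.36). With Saa1 as a covariate the median of the uptake list also turned (-0.26 to 0.15), as did pathway genes including Fgl1 (-0.77 to 0.54), Hp (-0.55 to 0.17), Cp (-0.13 to 0.14) and Il6st (-0.16 to 0.08). For the slope on Saa1 the number of genes was 43 with all livers, 164 without the low-count filter, 205 with DESeq2, 111 without genotype in the model and 8 to 453 with single livers left out. Members that passed were 1 without the low-count filter, 1 with DESeq2 and 0 to 2 with single livers left out, and pathway genes were 6 with DESeq2, 5 without genotype in the model and 0 to 15 with single livers left out. Among the members, slopes that turned sign were those of Hamp (-0.0082), Slc40a1 (-0.0078) and Bmp6 (0.0020) without genotype in the model and, with single livers left out, of Hamp (-0.0341 to 0.0562), Trf (-0.0081 to 0.0309), Slc40a1 (-0.0170 to 0.0101), Ftl1 (-0.0237 to 0.0652) and Bmp6 (-0.0639 to 0.10). The causes were not tested. Deviations of livers with the same replicate number from their group means had r = -0.02, -0.08 and 0.22. With 3 livers per group these values cannot decide whether the numbers pair the livers, and the labels do not say. With a replicate block 0 genes and 0 members passed. Correlations with Saa1 and their alternatives were not run because the livers formed separate clusters. Counting depth limits Hamp2 and Bmp6, which had 84 to 271 and 56 to 103 counts per library.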

Other observations

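Transcripts of red blood cells, which hold most of the body's iron, were present in every liver. Erythroid markers, led by Hbb-bs and Hba-a1, summed to 213, 287 and 179 CPM in the WT livers against 165, 106 and 219.6 CPM in Het replicates 1 to 3. Het replicate 2, lowest in this sum, was highest in Hamp, and WT replicate 2, highest in this sum, had 895 CPM of Hamp. Alas2, the erythroid form of the first enzyme of heme synthesis, had 33.3 ± 6.01 CPM in the WT livers against 30.2 ± 6.60 CPM in Het livers (SD, n = 3). Hmox1, the heme oxygenase gene of Kupffer cells and other cells that break down heme, had 22.5, 21.4 and 19.6 CPM in the WT livers against 16.8, 28.5 and 14.1 CPM in Het replicates 1 to 3. Het replicate 2 was thus highest and Het replicate 3 lowest in both Hmox1 and Hamp. The other livers did not keep that order: Het replicate 1 lay above all WT livers in Hamp, at 1170.2 CPM, but below all of them in Hmox1. These genes were set beside Hamp after their values were seen, and none of these relations was tested.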
